A study of Mus musculus with 6 samples.

Results

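*Cxcl1*, *Ccl2*, *Il6*, *Lif*, *Socs3*, *Zfp36*, *Nfkbia*, *Tnfaip3*, *Ier3* and *Icam1* are early response genes of NF-kB and cytokine signalling, and they were followed here in the hearts of wild-type (WT) and *Pkm1*-knockout (KO) mouse embryos. They were picked by symbol from the table of read counts, with earlier results of these same libraries known. The table holds 13809 genes, and 9 of the 10 named genes were analysed, since *Il6* was not analysed here. The KO embryos were homozygous for a CRISPR/Cas9 deletion in exon 9 of *Pkm*, the exon specific to the PKM1 form of pyruvate kinase, which catalyses the last step of glycolysis. The line was founded in hybrid C57BL/6J and DBA/2 zygotes, and the deletion was present in the whole body, so every cell type of the heart carried it. Each genotype had 3 libraries from embryonic day 18.5 (E18.5), called heart by the labels and ventricular tissue by the study, and the labels name no treatment.

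NF-kB is a family of dimeric transcription factors that IkB proteins hold in the cytoplasm until receptors for TNF, IL-1 or microbial products trigger their degradation. NF-kB then induces chemokines, cytokines and adhesion molecules, and with them its own inhibitors. Cytokines of the IL-6 family signal through the receptor chain gp130 and STAT3, a cascade that its target *Socs3* shuts off, and many of the induced mRNAs are short-lived because AU-rich elements (AREs) in their 3' UTRs are bound by decay factors such as the product of *Zfp36*. In the heart these genes are known for their response to stress, stretch and injury.

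The stretches of 160 bases that end just before the RefSeq transcript start (build GRCm38.p6) are printed for 7 of these genes, because they hold the binding-site motifs that a search found there. Capitals mark the matches, and each stretch is written 5' to 3' on the strand of its gene. The stretches of *Cxcl1*, *Nfkbia*, *Tnfaip3* and *Ier3* hold the NF-kB consensus, and that of *Tnfaip3* also holds TGANTCA, the element read by AP-1.
*Cxcl1* (chr5:90891085-90891244, plus strand): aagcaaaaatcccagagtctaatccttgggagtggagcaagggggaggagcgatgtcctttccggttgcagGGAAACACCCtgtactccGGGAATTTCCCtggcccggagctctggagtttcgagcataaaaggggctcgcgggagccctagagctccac
*Nfkbia* (chr12:55492648-55492807, minus strand): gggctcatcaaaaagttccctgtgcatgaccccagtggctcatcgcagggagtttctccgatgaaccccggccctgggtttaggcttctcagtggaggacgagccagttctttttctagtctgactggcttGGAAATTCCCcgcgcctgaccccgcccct
*Tnfaip3* (chr10:19015411-19015570, minus strand): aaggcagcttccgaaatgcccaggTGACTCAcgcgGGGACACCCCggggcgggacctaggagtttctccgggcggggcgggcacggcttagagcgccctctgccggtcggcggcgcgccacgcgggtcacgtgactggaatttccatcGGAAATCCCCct
*Ier3* (chr17:35821553-35821712, plus strand): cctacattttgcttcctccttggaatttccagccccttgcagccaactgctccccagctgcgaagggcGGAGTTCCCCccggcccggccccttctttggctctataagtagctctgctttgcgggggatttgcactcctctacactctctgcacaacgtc

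The stretches of *Socs3*, *Zfp36* and *Icam1* hold TTCNNNGAA, the spacing read by STAT proteins, and that of *Zfp36* also holds the core of the serum response element.
*Socs3* (chr11:117969367-117969526, minus strand): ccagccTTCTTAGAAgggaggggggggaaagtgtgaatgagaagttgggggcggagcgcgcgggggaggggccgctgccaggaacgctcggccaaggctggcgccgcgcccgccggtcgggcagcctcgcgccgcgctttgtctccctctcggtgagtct
*Zfp36* (chr7:28379229-28379388, minus strand): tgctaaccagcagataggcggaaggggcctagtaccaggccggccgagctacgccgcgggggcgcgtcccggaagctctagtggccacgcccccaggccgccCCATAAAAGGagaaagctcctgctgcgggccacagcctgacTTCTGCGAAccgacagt
*Icam1* (chr9:21015780-21015939, plus strand): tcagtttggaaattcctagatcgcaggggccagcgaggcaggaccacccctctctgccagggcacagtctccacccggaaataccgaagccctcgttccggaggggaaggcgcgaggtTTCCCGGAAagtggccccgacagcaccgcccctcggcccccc

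The search covered 300 bases, from 250 before to 50 after the start, on both strands, in 32851 RefSeq promoters. Of the 10 genes, 9 had such a promoter, and *Ccl2* is named only. These 9 genes had 10 promoter sequences, and a gene counted if any of its sequences held a match. Percentages are shares of promoter sequences. The NF-kB consensus lay in 5 of these 9 (*Cxcl1*, *Il6*, *Nfkbia*, *Tnfaip3* and *Ier3*) and in 4.51% of all promoters. In *Cxcl1* it began 71 bases before the start, in *Ier3* 92, in *Nfkbia* 29 and in *Il6* 44, and *Tnfaip3* held it 125 and 12 bases before the start. Another NF-kB pattern that partly overlaps it (GGG, any 2 bases, TT, any base and CC) lay in 4 of the 9 and in 4.79% of all promoters. In *Cxcl1* a further match to this pattern began 89 bases before the start. TGANTCA lay in 3 of the 9 (*Il6*, *Lif* and *Tnfaip3*) and in 7.81% of all promoters, and TTCNNNGAA lay in 3 and in 8.30%. The serum response element core lay in *Zfp36* and in 1.63% of all promoters. The cyclic AMP response element TGACGTCA was found in 0 of the 9 genes and in 1.79% of all promoters. Among promoters of the tested genes the NF-kB consensus lay in 5.15%, TGANTCA in 5.09% and TTCNNNGAA in 6.73%. The serum response element core lay in 1.37% of these and TGACGTCA in 2.91%. Only full matches were counted. The printed stretch of *Icam1* holds tggaaattcc, which misses the NF-kB consensus only by its first letter, T in place of G. Such near matches were not counted in any promoter. A match describes the letters only, and binding was not measured.

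**Figure D1:**
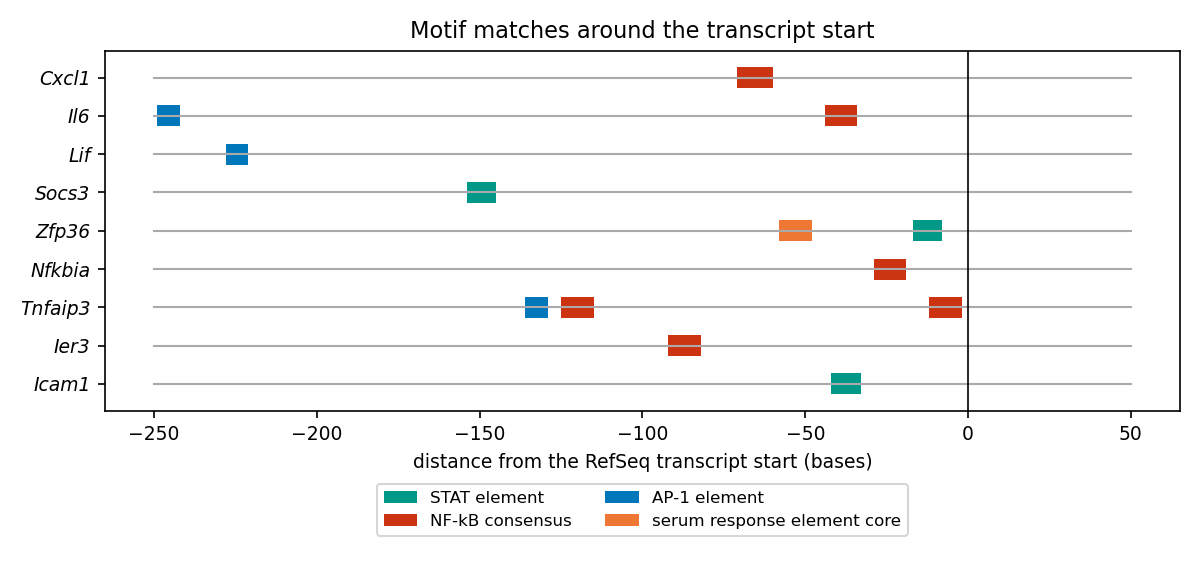
Position of each motif match (coloured boxes), except those to the looser NF-kB site, which are not drawn. The promoter windows are those of the 9 genes with a RefSeq promoter, in bases from the transcript start at 0 (x axis). *Cxcl1*, *Il6*, *Nfkbia*, *Tnfaip3* and *Ier3* hold the NF-kB consensus, and *Socs3*, *Zfp36* and *Icam1* hold the STAT element TTCNNNGAA. Only full matches are drawn.

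The genes also shared features of their transcripts, which were read from the annotation and not from these libraries. The longest coding transcript of every one of the 10 genes carried at least 1 ATTTA pentamer in its 3' UTR, with a median of 3.89 per kb against 1.31 over the 13018 tested genes with a coding transcript. The median of 1.31 means that most tested genes with a 3' UTR carried the pentamer too, so its presence alone does not set these genes apart. Density was highest in *Cxcl1*, at 11.8 per kb. The AU-rich nonamer that tristetraprolin, the product of *Zfp36*, recognises (ATTTA with TT on either side) was present in 5 of the 10 and in 8.10% of the tested genes. *Cxcl1* and *Lif* held 2 copies each, and *Zfp36* itself, *Nfkbia* and *Tnfaip3* held 1 copy each. Among the 9278 tested genes whose 3' UTRs lay within the range of these genes, from 275 bases in *Ccl2* to 3180 in *Lif*, 7.10% held a nonamer. This range is wide, and the genes in it were not matched for length. The genes were compact, with a median of 4 exons against 9, and 7 of the 10 had at most 4 exons, as had 21.2% of the tested genes.

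Sequencing depth was similar in all libraries, at 15567624 to 19875546 counts, so that 3 counts stood for 0.153 to 0.197 CPM (counts scaled to library size). The targeted gene averaged 1318 ± 41.1 CPM over the WT libraries and 542 ± 10.1 CPM over the KO libraries (SD, n = 3 each), and counts per gene do not separate its 2 splice forms. The libraries also differed in the sex of the embryos. *Xist*, the RNA of the inactive X chromosome, averaged 5.26 CPM in WT against 2285 CPM in KO hearts. No KO library held a count (0 in each) of *Kdm5d*, *Eif2s3y*, *Uty* or *Ddx3y*, genes of the Y chromosome that all WT libraries expressed. Sex and genotype therefore cannot be told apart for any difference given here. In bulk tissue, fewer cells of a type and less RNA per cell cannot be told apart either.

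Most of the analysed genes were at lower levels in KO hearts. In the fit across all genes (edgeR's quasi-likelihood test, adjusted p under 0.05), 7 of the 9 were lower, and *Lif* and *Tnfaip3* did not pass the threshold. Among all 13804 genes tested, 15.7% were lower and 14.6% higher, 30.3% together. Of the 9 genes, 5 were lower by at least 1.5-fold, where all genes tested gave 3.20% lower and 2.99% higher by that margin. The same 7 genes had every KO library below every WT library, an order seen for 21.4% of all genes tested, with 21.0% in the opposite order. Their median log2 fold change (KO minus WT, all 9 genes) was -0.62, and that of all genes tested was 0.00172. Because the genes were chosen with this comparison known, these counts describe them and carry no test. Without the library KO a, 6 genes stayed past the threshold, because *Socs3* no longer did.

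**Figure D2:**
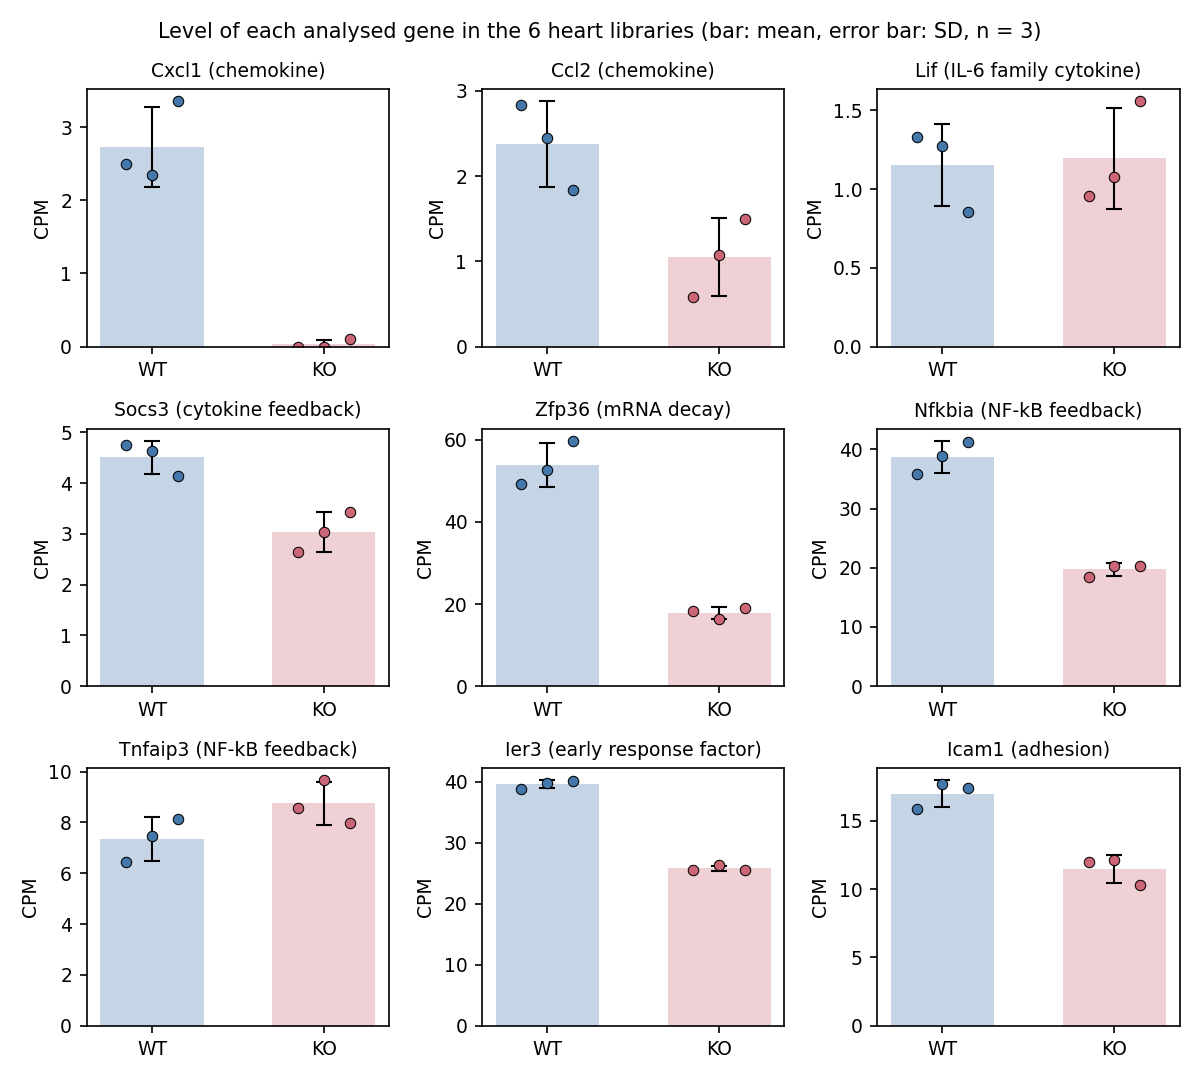
CPM of the 9 analysed genes (y axis, each panel with its own scale from 0) in 3 WT and 3 KO libraries, drawn in the order a to c, with bars for the mean and error bars for the SD (n = 3). KO points lie below all WT points in every panel except those of *Lif* and *Tnfaip3*.

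The chemokine *Cxcl1*, which attracts neutrophils, showed the widest gap. It lies on chromosome 5 (90891241 to 90893115, plus strand, GRCm38). WT a, b and c had 43, 46 and 51 counts, which is 2.49, 2.35 and 3.35 CPM, and KO a, b and c had 0, 0 and 2 counts. All KO libraries thus lay under the limit of 3 counts, and both counts of the KO group came from KO c. The ratio of the summed counts, corrected for library size, was 71.7 with an exact counting interval (95%) of 19.5 to 598. A fitted fold change of such a gene depends on the prior count, and it moved to -8.55 on the log2 scale without KO c.

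*Ccl2*, the monocyte chemokine, was low in all hearts and lower in KO. It lies on chromosome 11 (82035571 to 82037453, plus strand). Its level was 2.84, 2.45 and 1.84 CPM in WT a, b and c and 0.583, 1.07 and 1.5 CPM in KO a, b and c. The groups did not overlap, but WT c and KO c lay close together, at 28 counts each. The KO mean was 44.3% of the WT mean, with a log2 fold change of -1.18 (SE 0.285), which ranged from -1.56 to -0.87 with each library left out in turn. A gene on the opposite strand, *Gm17268*, overlaps *Ccl2* without sharing exon bases.

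*Lif*, the cytokine of the IL-6 family that signals through gp130 and the LIF receptor, was at similar low levels in both genotypes. It lies on chromosome 11 (4257557 to 4272514, plus strand). The WT libraries were at 1.33, 1.28 and 0.854 CPM and the KO libraries at 0.954, 1.07 and 1.56 CPM, on 13 to 29 counts each. The groups overlapped throughout, and the lowest library was WT c and the highest KO c. The log2 fold change was 0.04 (SE 0.301), and its sign turned without WT c (-0.12) or without KO c (-0.21).

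*Socs3*, the feedback inhibitor of JAK kinases downstream of gp130, was lower in KO hearts by a smaller margin. It lies on chromosome 11 (117966079 to 117970047, minus strand). Levels were 4.75, 4.64 and 4.14 CPM in WT and 2.65, 3.03 and 3.43 CPM in KO. The lowest of the WT libraries, WT c, exceeded the highest of the KO libraries, KO c, by 1.21 times. The log2 fold change was -0.57 (SE 0.167), and it was -0.48 without KO a, the lowest KO library.

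*Zfp36* encodes tristetraprolin, which binds AREs and recruits the deadenylation machinery, and it had the lowest KO share among the genes with more than 10 counts in every library. It lies on chromosome 7 (28376784 to 28380253, minus strand). The WT libraries were at 49.3, 52.6 and 59.8 CPM and the KO libraries at 18.2, 16.3 and 19.1 CPM. The groups lay far apart, with the lowest WT library at 2.58 times the highest KO library and a KO mean of 33.2% of WT. The log2 fold change was -1.58 (SE 0.0740). An antisense gene, *Gm44710*, shares 125 exon bases with *Zfp36*, and the sources used here do not say whether strand was used in counting, so reads of the 2 genes may be mixed in these counts.

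Of the NF-kB feedback inhibitors, *Nfkbia* was lower in KO hearts and *Tnfaip3* overlapped between genotypes. *Nfkbia*, which encodes IkB-alpha and is among the fastest NF-kB targets, lies on chromosome 12 (55489410 to 55492647, minus strand). It was at 35.8, 38.9 and 41.3 CPM in WT and 18.5, 20.3 and 20.3 CPM in KO. Its groups were well separated, with a KO mean of 51.0% of WT and a log2 fold change of -0.97 (SE 0.0698). *Tnfaip3* encodes A20, the ubiquitin-editing enzyme that ends signalling at the TNF receptor complex, and lies on chromosome 10 (19000910 to 19015657, minus strand). It was at 6.43, 7.45 and 8.15 CPM in WT and 8.58, 9.66 and 8.0 CPM in KO. Here KO c lay below WT c, the groups overlapped, and the log2 fold change was 0.25 (SE 0.121), staying above 0 with each library left out. Both genes hold the NF-kB consensus in the stretches printed above.

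*Ier3*, an immediate early gene whose product is known for its part in cell survival, was the most evenly measured of the genes. It lies on chromosome 17 (35821684 to 35822923, plus strand). It was at 38.9, 39.9 and 40.1 CPM in WT and 25.6, 26.3 and 25.5 CPM in KO. Within each genotype the libraries differed little, and the KO mean was 65.1% of WT with a log2 fold change of -0.62 (SE 0.0599).

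*Icam1*, the endothelial adhesion molecule to which leukocyte beta-2 integrins bind, lies on chromosome 9 (21015985 to 21028817, plus strand). It was at 15.9, 17.7 and 17.4 CPM in WT and 12.0, 12.1 and 10.3 CPM in KO. The groups did not overlap, and the log2 fold change was -0.57 (SE 0.0915) with a KO mean of 67.5% of WT. An antisense gene, *Gm47079*, shares 511 exon bases with *Icam1*, so the value carries the same uncertainty about strand as that of *Zfp36*.

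**Figure D3:**
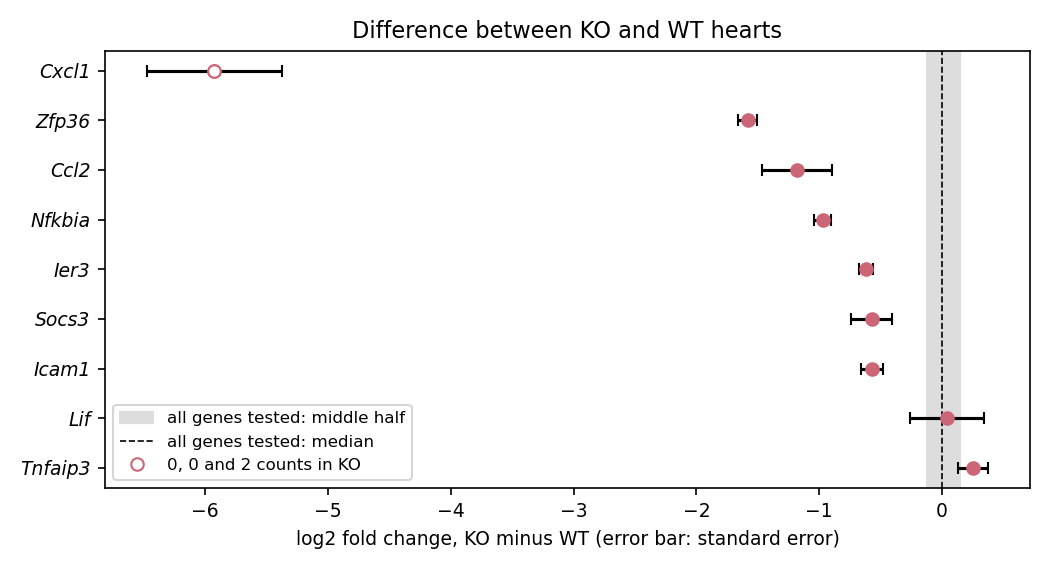
Log2 fold change of each analysed gene (x axis, KO minus WT, points) with its standard error, beside the median (dashed line) and the middle 50% (grey band) of all genes tested. *Cxcl1* (open point) is fitted on 0, 0 and 2 counts in KO, so that its place depends on the prior count, and *Lif*, at 0.04, is the point closest to the dashed line.

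Levels were compared between genes only per kb of annotated exon. In WT hearts *Ier3* was highest at 35 CPM per kb, followed by *Nfkbia* at 24.0, *Zfp36* at 15.5, *Icam1* at 3.90, *Ccl2* at 2.09, *Socs3* at 1.56, *Cxcl1* at 1.46, *Tnfaip3* at 1.02 and *Lif* at 0.265. The median of all genes tested was 5.16, so only the first 3 lay above it in this annotation. The WT libraries of *Ccl2*, *Socs3* and *Cxcl1* overlapped on this scale, and those of the other neighbours did not. In KO hearts *Ier3* (22.8 CPM per kb), *Nfkbia* (12.3), *Zfp36* (5.15) and *Icam1* (2.63) kept their places. *Tnfaip3* (1.21), *Socs3* (1.05) and *Ccl2* (0.925) followed with overlapping libraries, then *Lif* (0.275) and *Cxcl1* (0.0191).

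The genes were also compared by the shape of their profile, as the Euclidean distance between centred log2 CPM over the 6 libraries. *Nfkbia* lay closest to the mean profile of the 9 genes, at a distance of 0.239, and *Cxcl1* farthest, at 4.05. Outside the list, the profiles nearest to this mean were those of *5031434C07Rik* (0.170), *Afp* (0.204), *B430010I23Rik* (0.218), *Stbd1* (0.225) and *Coch* (0.229). *Stbd1*, a glycogen-binding protein, averaged 109 ± 1.95 CPM over the WT and 52.2 ± 0.594 CPM over the KO libraries (SD, n = 3). All 5 had every KO library below every WT library, an order seen for 21.4% of all genes tested. The mean profile has this order itself, so picking genes for nearness to it fixed the order in advance. *Cxcl1*, with its counts of 0, weighs on the mean profile they were compared with.

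The wider pathway was described with lists that leave out the genes above, and each list is given beside the 15.7% lower and 14.6% higher of all genes tested. Of 44 genes of NF-kB signalling, 42 were analysed, of which 9 fell and 2 rose, with a median log2 fold change of -0.09. Of the 5 DNA-binding subunits, 2 fell. *Nfkb1* (p105/p50) went from 87.8 ± 2.41 to 80.6 ± 2.41 CPM (SD, n = 3), with adjusted p = 0.0304 that became 0.0765 to 0.147 without WT a, WT b, KO a or KO b and 0.0771 with DESeq2. *Rela* (p65) was at 33.2 ± 4.23 and 29.3 ± 2.37 CPM with overlapping groups (adjusted p = 0.0914, and 0.0453 without WT b). *Nfkb2* (p100/p52) was at 24.2 ± 2.44 and 21.2 ± 1.18 CPM (adjusted p = 0.0630, 0.0458 without WT a and 0.0141 without WT c), and *Rel* fell by 0.50 on the log2 scale (adjusted p = 4.29e-04).

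At least 1.5-fold lower in this list were 3 genes, and they included both nuclear IkB proteins analysed. *Nfkbiz* (IkB-zeta, a coactivator of secondary NF-kB targets) was at 18.8, 20.1 and 17.0 CPM in WT and 9.22, 8.84 and 8.91 CPM in KO. Its groups lay apart by more than the spread of either, and it fell by 1.06 on the log2 scale (SE 0.0926, adjusted p = 1.14e-09). *Bcl3*, which binds p50 and p52 dimers in the nucleus, fell by 0.92 (adjusted p = 0.00521). *Otulin*, which removes linear ubiquitin chains, went from 38.4 ± 0.942 to 25 ± 1.51 CPM (adjusted p = 1.89e-08). Among kinases and adaptors, *Tab1* (log2 fold change 0.26) and *Traf2* (0.41) rose, whereas *Tab2*, *Irak2* and *Traf5* fell by less than 1.5-fold.

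Among the ligands and receptors upstream, 20 of 31 genes were analysed, of which 5 fell and 2 rose (median -0.07). The ligands *Tnf*, *Il1a* and *Il1b* were not analysed here. *Cd14*, the lipopolysaccharide co-receptor, had 116 counts over the WT and 10 over the KO libraries, a ratio of 11.9 with a 95% counting interval of 6.23 to 25.4 (adjusted p = 3.31e-08). All KO libraries of *Cd14* lay near the level of 3 counts, at 0.159, 0.189 and 0.215 CPM, against 1.91, 2.45 and 2.30 CPM in WT. *Tnfrsf12a*, the TWEAK receptor, fell from 54.1 ± 5.00 to 39.2 ± 0.476 CPM (adjusted p = 1.41e-06), and *Tlr4* fell by 0.39 on the log2 scale (adjusted p = 0.00110). *Tlr2* fell by 0.65, but its adjusted p of 0.0362 became 0.0599 to 0.105 without WT a, WT b or any KO library and 0.127 with DESeq2. The flagellin receptor *Tlr5* rose from 6.12 ± 0.266 to 9.76 ± 0.286 CPM (adjusted p = 5.39e-05). *Il1rl1*, the IL-33 receptor, rose from 1.64 ± 0.150 to 2.52 ± 0.393 CPM (adjusted p = 0.0407), which became 0.0701 to 0.153 without WT a, WT b, KO b or KO c and 0.126 with DESeq2. The main TNF and IL-1 receptors did not pass the threshold, with log2 fold changes of -0.10 for *Tnfrsf1a* (adjusted p = 0.180) and -0.01 for *Il1r1* (adjusted p = 0.901).

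Of 48 other known NF-kB targets, 32 were analysed, of which 13 fell and 1 rose, with a median log2 fold change of -0.24. *Edn1*, the vasoconstrictor endothelin-1, was at 22.1, 20.6 and 20.2 CPM in WT and 9.11, 10.2 and 9.07 CPM in KO (log2 fold change -1.15, SE 0.0885, adjusted p = 7.81e-11). *Sele* (E-selectin), like *Icam1* an endothelial receptor for leukocytes, was at 12.6, 9.29 and 8.80 CPM in WT and 5.09, 4.80 and 3.97 CPM in KO (log2 fold change -1.15, SE 0.144, adjusted p = 6.68e-07). For both genes every WT library lay above every KO library. *Ccrl2* fell by 0.94 (adjusted p = 6.30e-06) and the peptide transporter *Tap1* by 0.70 (adjusted p = 5.92e-04). *Cd83* fell by 0.89 (adjusted p = 0.0135, 0.0531 without KO a and 0.0607 with DESeq2). The adhesion molecule *Vcam1* was at 104 ± 0.899 and 106 ± 4.38 CPM, and the mitochondrial superoxide dismutase *Sod2* at 351 ± 8.85 and 346 ± 4.85 CPM, with overlapping groups for both (adjusted p = 0.653 and 0.642). *Ccl7*, like *Ccl2* a chemokine for monocytes, was at 1.01 ± 0.169 and 0.510 ± 0.306 CPM (adjusted p = 0.0755). The gene that rose was *Cflar*, an inhibitor of caspase-8, by 0.14 on the log2 scale, and it was no longer past the threshold without WT a, WT b, KO b or KO c.

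In the IL-6 family and JAK-STAT list, 38 of 45 genes were analysed, of which 14 fell and 4 rose (median -0.09). *Il6st* (gp130) went from 186 ± 2.71 to 172 ± 2.92 CPM (adjusted p = 0.00986, and 0.0656 without KO a), and *Lifr* from 170 ± 2.54 to 157 ± 4.31 CPM (adjusted p = 0.0156, and 0.0659 to 0.0903 without WT b, KO a or KO c). *Stat3*, the factor downstream of gp130, averaged 152 ± 0.289 CPM over the WT and 97.8 ± 0.551 CPM over the KO libraries (SD, n = 3), a log2 fold change of -0.63 (SE 0.0369, adjusted p = 2.35e-13). *Stat2* fell by 0.36 (adjusted p = 7.91e-05).

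Of the 14 SOCS proteins and other inhibitors listed beside *Socs3*, 4 fell and 2 rose. *Socs2* fell from 59.5 ± 0.914 to 31.7 ± 1.16 CPM (adjusted p = 4.17e-13) and *Cish* from 87.2 ± 1.97 to 53.8 ± 1.60 CPM (adjusted p = 4.01e-12), both known as targets of STAT5. Of 5 genes listed as STAT3 targets, 4 fell and *Timp1* did not pass the threshold. The kinase genes *Pim1* and *Pim3* fell by 0.92 and 1.02 on the log2 scale (adjusted p = 6.24e-13 and 2.98e-14). The C/EBP factor *Cebpb* was at 12.9, 12.2 and 18.2 CPM in WT and 6.94, 6.19 and 6.87 CPM in KO (log2 fold change -1.10, adjusted p = 2.46e-07). *Cebpd* went from 15.4 ± 0.985 to 6.78 ± 0.538 CPM (adjusted p = 9.64e-10). The genes that rose, *Tyk2*, *Il11ra1*, *Socs5* and *Socs6*, did so by less than 1.5-fold. The count of genes of this list that rose was 1 without KO c and 2 without WT a or without WT b.

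**Figure D4:**
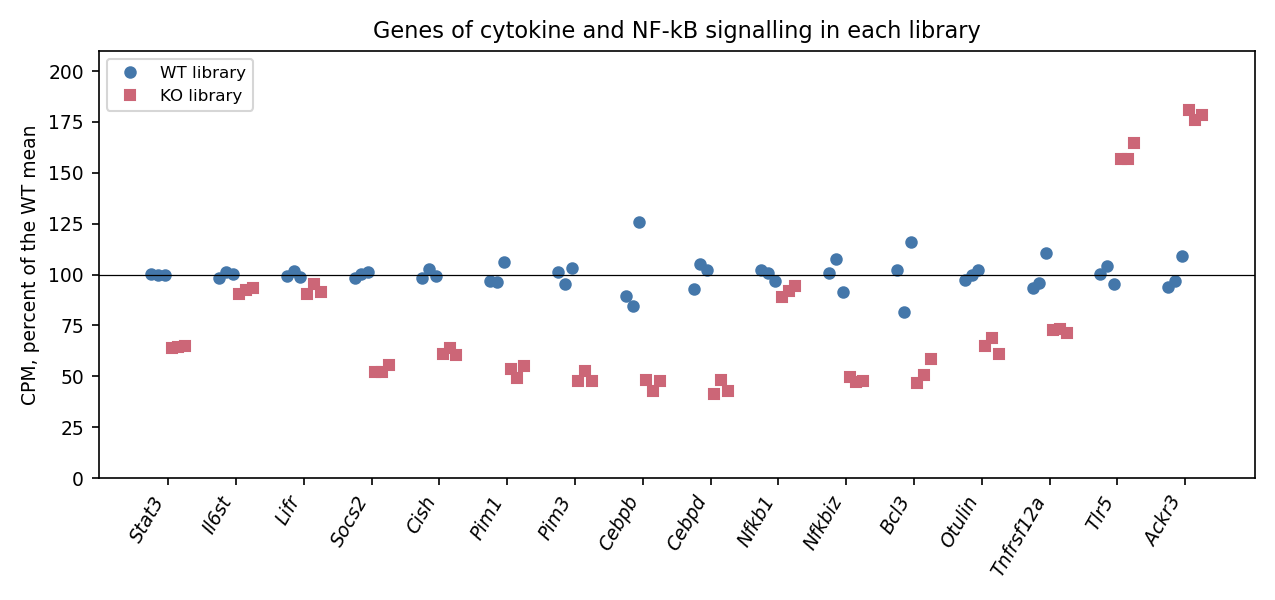
CPM of named genes of cytokine and NF-kB signalling in each library, as a percent of the WT mean (y axis, from 0), with WT as circles and KO as squares. *Il6st*, *Lifr* and *Nfkb1* lie somewhat below 100% in every KO library, with KO means of 92.2%, 92.4% and 91.7%. *Socs2*, *Pim1*, *Pim3*, *Cebpb*, *Cebpd*, *Nfkbiz* and *Bcl3* lie well below 100% in every KO library, and *Tlr5* and *Ackr3* lie above it.

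The other genes of ARE binding and mRNA decay went both ways. All 28 listed genes were analysed, of which 7 fell and 6 rose, with a median log2 fold change of 0.01, and 4 fell without KO a. Among the paralogs of *Zfp36*, *Zfp36l1* fell from 235 ± 10.6 to 205 ± 5.80 CPM (adjusted p = 1.80e-04) and *Zfp36l2* was at 33.4 ± 0.731 and 36.6 ± 1.09 CPM (adjusted p = 0.0983). *Tob2*, an adaptor of the deadenylase complex, fell by 0.67 on the log2 scale (adjusted p = 8.35e-11) and was the only gene of this list past 1.5-fold. *Zc3h12a*, the ribonuclease regnase-1, fell by 0.55 (adjusted p = 0.0145) although its groups overlapped. *Tia1* and *Tial1*, which also bind AREs, rose by 0.22 and 0.23 (adjusted p = 8.21e-04 and 3.04e-04).

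A list of chemokine receptors, the ligand *Cxcl12*, ICAM-1 relatives, integrin chains and the ICAM-binding linker proteins ezrin and moesin had 11 of 19 genes analysed, of which 2 fell and 4 rose (median 0.07). The 2 that fell were the linker genes *Ezr* and *Msn*, and the 4 that rose were *Ackr2*, *Ackr3*, *Cxcl12* and *Icam2*. Without KO b 2 rose, and without WT b 1 fell. *Ackr3*, the scavenging receptor for CXCL12, was at 8.98, 9.24 and 10.4 CPM in WT and 17.3, 16.8 and 17.1 CPM in KO, a log2 fold change of 0.84 (SE 0.0915, adjusted p = 6.23e-08). The scavenger *Ackr2*, which clears inflammatory CC chemokines, rose from 7.18 ± 0.499 to 10.4 ± 0.678 CPM (adjusted p = 6.05e-04). *Itgb2*, the integrin chain that pairs to bind ICAM-1, was at 2.11 ± 0.0299 and 1.32 ± 0.475 CPM (adjusted p = 0.0504). The main receptors of CXCL1 and CCL2, *Cxcr2* and *Ccr2*, were not analysed here.

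The immediate early genes, which growth factors and stress induce within minutes, had the lowest median of the 7 lists. The lists were chosen with earlier results of these data known, so this rank is a description and carries no test. Of 24 genes, 23 were analysed, of which 22 fell and *Ier5l* rose (adjusted p = 0.0468, and not past the threshold without WT a, WT b, KO a or KO b). Their median log2 fold change was -1.22, and their summed level was 1584 to 1696 CPM in WT and 606 to 613 CPM in KO libraries. At least 1.5-fold lower were 19, with *Fos* (log2 fold change -4.02), *Nr4a3* (-3.29), *Atf3* (-3.12), *Fosb* (-3.10), *Egr1* (-2.57), *Btg2* (-2.54), *Nr4a1* (-2.47) and *Egr2* (-2.17) as the lowest. *Junb*, *Fosl2*, *Egr3*, *Myc*, *Jun*, *Klf6*, *Ier5*, *Klf4*, *Nr4a2*, *Dusp1* and *Ier2* made up the rest, between -1.75 and -0.89. *Ier2* and *Ier5*, named like *Ier3* for their early induction, went from 27.6 ± 1.57 to 14.9 ± 0.651 CPM (adjusted p = 6.08e-10) and from 52.2 ± 4.19 to 25.5 ± 1.39 CPM (adjusted p = 1.58e-12).

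**Figure D5:**
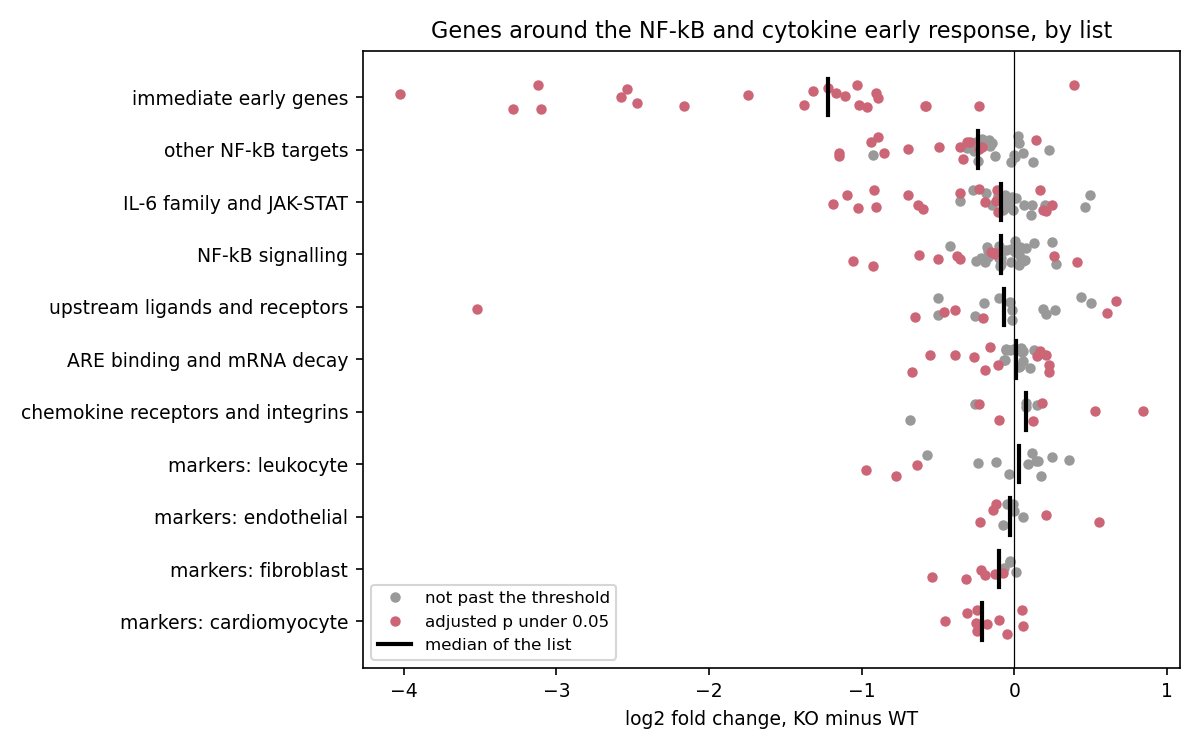
Log2 fold change (x axis, KO minus WT) of every analysed gene in each list, coloured where the adjusted p was under 0.05, with a black bar for the median of the list. The immediate early genes lie to the left with a median of -1.22, and the medians of the other lists lie between -0.24 and 0.07.

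The cell types that could carry these mRNAs were described by markers, and their part in the results was not tested. Of 17 leukocyte markers 14 were analysed, and *C1qa*, *C1qc* and *S100a9* fell, to log2 fold changes of -0.78, -0.64 and -0.97. The other 11 did not pass the threshold, and the median log2 fold change of the 14 was 0.03. The summed leukocyte markers were at 78.6 to 83.0 CPM in WT and 75.1 to 84.7 CPM in KO libraries, which overlapped. The 10 endothelial markers, of which 3 fell and 2 rose, summed to 1596 to 1605 CPM in WT and 1572 to 1608 CPM in KO, overlapping as well. The 10 fibroblast markers, of which 6 fell, summed to 5113 to 5125 CPM in WT and 4663 to 4747 CPM in KO. The 10 cardiomyocyte markers, of which 8 fell and 2 rose, summed to 140032 to 144152 CPM in WT and 132889 to 134219 CPM in KO, so that the markers of heart muscle were abundant in every library. No analysed marker was at 0 in any library.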

How the data were processed

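Total RNA of 3 WT and 3 KO hearts was depleted of ribosomal RNA and sequenced in paired ends. Per the submitters' notes, reads were trimmed with cutadapt 1.18 and aligned to mm10 with Hisat2, and StringTie was used; the counting program, its use of strand and the filter on genes are not given in the sources used here. Raw counts for each gene symbol were deposited by the authors, together with their own edgeR comparison (fold changes, average log CPM, p-values and false discovery rates), which was not used. Columns carry the genotype and no replicate number, so libraries were named a to c in column order. The study calls them biological replicates, and nothing says from which litters they came.

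Counts were analysed with edgeR 4.0.16 in R 4.3.3: filterByExpr (13804 of 13809 genes kept), TMM scaling and the two-sided quasi-likelihood test on genotype alone, with p-values adjusted by Benjamini-Hochberg. The script was tested on simulated data. CPM are these scaled counts. Symbols were matched to the GRCm38 annotation, directly for 13299 and through older symbols for 414. Counting intervals (exact, 95%) and the limit of 3 counts cover counting error only. The genes and lists were chosen with earlier results of these data known. Named were the 10 genes, every list gene past the threshold with at least 1.5-fold change, pathway-defining subunits and receptors, and the 5 nearest profiles (mean of at least 1 CPM); other genes named were chosen after their values were seen. Some genes that this rule names are not reported here. Alternatives were RLE scaling, DESeq2 1.42.0, the edgeR exact test, TMM without *Rn45s*, other filters on low counts, genes on X and Y left out, and each library left out in turn. Transcript features were read from the GRCm38 annotation and promoters from RefSeq (GRCm38.p6).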

Additional observations from a re-analysis of the deposited data

How the results depend on the processing

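No paired analysis was possible because no replicate number is given in the column names. Summing the most similar libraries of a genotype was not run, since every pair of libraries of 1 genotype differed by more than sampling noise (chi-square of 1.55 to 3.76 per gene). The 7 genes of the NF-kB and cytokine response past the threshold in KO were 6 or 7 under every alternative, with *Socs3* past it in all but the fit without KO a, and *Cxcl1* left out by a minimum of 10 counts in every library. The log2 fold change of *Lif* ran from -0.21 to 0.19 with each library left out, and it turned negative without WT c (-0.12) and KO c (-0.21). Counts of genes that rose were the least stable. DESeq2 gave 1 in place of 2 for the ligands and receptors, 0 in place of 1 for the other NF-kB targets, 1 in place of 4 for the IL-6 family and JAK-STAT list, and 0 in place of 1 for the immediate early genes. With each library left out these 4 counts ran from 1 to 2, 0 to 1, 1 to 4 and 0 to 1, and the chemokine receptor and integrin list gave 2 to 3 rises in place of 4. The causes were not tested. Falls in the ARE list ran from 4 to 7 (4 without KO a), and falls in the chemokine receptor and integrin list from 1 to 2, with each library left out. The latter list gave 1 fall when genes on X and Y were left out, which removes the X-linked *Msn* itself. It gave 3 falls with the edgeR exact test and with at least 10 counts in every library. Of the 65 genes followed singly through the alternatives, *Nfkb1*, *Tlr2*, *Il1rl1* and *Cd83* were no longer past the threshold with DESeq2. *Cflar* and *Ier5l*, which are outside these 65, were not past it with DESeq2 either. Of these 65 genes, 55 kept direction and side of the threshold in every alternative run. Other genes named in this report, such as *Cflar*, *Ier5l*, *Tyk2*, *Il11ra1*, *Socs5* and *Socs6*, are not among the 65. Over all genes, DESeq2 gave 1639 lower and 1362 higher. The nonamer was found in 5 of the 10 genes also when any coding transcript was read. Low counts limit *Ccl2*, *Lif* and *Cxcl1* most, at 0 to 51 counts a library.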

Other observations

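Markers of further heart cell types were measured beside the lists of the report. Of 5 epicardial markers 3 rose, *Wt1*, *Upk3b* and *Krt19*, with log2 fold changes of 0.34, 0.26 and 0.59 (adjusted p = 1.19e-04, 0.0171 and 3.67e-05 from edgeR's quasi-likelihood test), and their summed level was 70.8 to 73.2 CPM in the WT libraries against 86.9 to 92.5 CPM in the KO libraries. Of 4 smooth muscle markers, the myosin gene *Myh11* fell by 0.47 on the log2 scale (adjusted p = 1.43e-05) and *Cnn1* rose by 0.30 (adjusted p = 0.00448). The erythroid list was analysed for 2 of 6 genes, of which *Alas2*, the first enzyme of haem synthesis in red cells, rose by 0.30 (adjusted p = 0.00257).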
